A study of Canis lupus familiaris with 4 samples.

Results

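The genes described here are 41 S phase and DNA replication genes of dog MDCKII cells, an established line of kidney tubule epithelium. They were taken by name, as every probe set on the array whose annotated gene symbol is one of the 41. That gave 93 of 42924 probe sets and covered 40 of the 41 genes. No probe set used here carried the symbol LIG1, the ligase that joins Okazaki fragments. A gene was represented by its brightest probe set, and 39 of the 40 measured genes reached the median of all values (an intensity of 46.3, called the floor) on at least 1 array. They are 39 of 9834 genes that did so. The remaining one, E2F1, lay below the floor on every array.

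The series holds 4 arrays with 1 array per group, labelled HIF1A KD in hypoxia, HIF1A WT in hypoxia, HIF1A KD in normoxia and HIF1A WT in normoxia. KD stands for a knockdown of HIF1A, the alpha subunit of a hypoxia-inducible factor, and WT for cells without it. All cells spent 24 h in normoxia and then another 24 h in the labelled oxygen condition. The labels used here do not say how the knockdown was made, from how many clones, or how low the oxygen was.

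Before the results, the labels need a caution. HIF1A read 625 on the array labelled KD hypoxia, 675 on the array labelled WT hypoxia, 3435 on the array labelled KD normoxia and 3651 on the array labelled WT normoxia. HIF1A mRNA therefore differed with the oxygen label and hardly with the knockdown label. All directions given here follow the labels as deposited. If the arrays labelled KD normoxia and WT hypoxia changed places, each oxygen difference given here would become a genotype difference and the reverse. The median intensity per array was between 45.6 and 47.1. Of 8 measured markers of tubule epithelium 7 were above the floor on all arrays, among them EPCAM and KRT18, while CDH1 was below it on every array. Of 5 fibroblast markers 4 were below the floor on every array, and PDGFRA was above it on all. Of 3 endothelial markers CDH5 (104 to 178) and KDR (47.3 to 66.1) were above the floor on all arrays and PECAM1 below it on all. Of 3 leukocyte markers CD68 was above the floor on all arrays, PTPRC on 2 and CD3E on 0. The fibroblast markers summed to intensities of 97.1 to 107 per array, the endothelial to 175 to 242 and the leukocyte to 264 to 323. Their part in the results was not tested.

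DNA replication begins with licensing, in which CDC6 and CDT1 help to load the ring of MCM2 to MCM7 onto origins in G1. At the start of S phase kinases and further factors, MCM10 and the GINS complex among them, turn that ring into an active helicase. Primase and DNA polymerase alpha start each strand, the RFC complex loads the sliding clamp PCNA, and polymerases delta and epsilon extend it. Many of the genes are targets of E2F factors, which cyclin E with its kinase frees from the RB protein, so that their mRNAs tend to rise together as cells enter S phase.

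The replication genes differed little between the arrays. No member reached a 2-fold difference in any of the 4 comparisons of 2 arrays. In labelled hypoxia minus normoxia the median over the 39 members was -0.01 in KD cells and 0.07 in WT cells on the log2 scale, against 0.02 and 0.01 over all genes. The members' differences ran between -0.66 and 0.68 in KD cells and between -0.53 and 0.47 in WT cells. In labelled KD minus WT their median was -0.12 in hypoxia and -0.06 in normoxia, against -0.01 over all genes in both. Log2 differences are of intensity plus 16 throughout, which understates the change of dim genes, and with 1 array per group none of them has a replicate check.

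**Figure D1:**
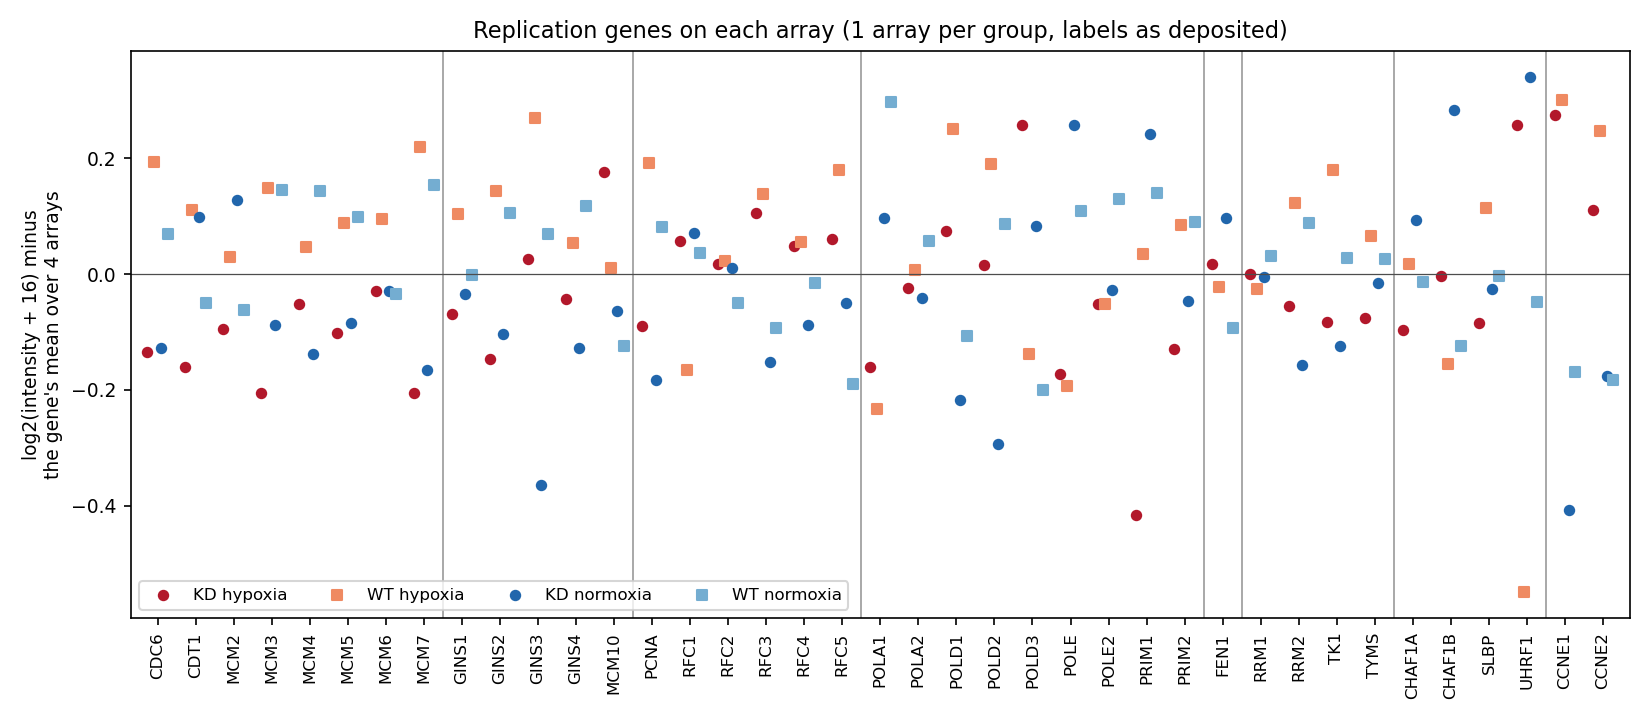
Level of the 39 replication genes on each of the 4 arrays, as log2(intensity + 16) minus the gene's own mean over the arrays, with vertical lines between roles (licensing, helicase assembly, clamp and loader, polymerases, FEN1, nucleotide supply, chromatin, cyclins). Most points lie within 0.2 of the mean. CCNE1 and CCNE2 sit higher on both arrays labelled hypoxia, and MCM7 and PCNA lower on both arrays labelled KD.

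Counted by size, 1 of 39 members was at least 1.5-fold higher (CCNE1) and 1 at least 1.5-fold lower (PRIM1) in labelled KD hypoxia than in KD normoxia, where 3.41% of all genes were that much higher and 4.05% lower. Between labelled WT hypoxia and WT normoxia the counts were 0 and 0, beside 3.34% and 2.88% of all genes. Between labelled KD hypoxia and WT hypoxia UHRF1 was the 1 member higher and 0 were lower, beside 2.74% and 2.59%. Between labelled KD normoxia and WT normoxia the counts were again 0 and 0, beside 3.76% and 2.82%. The members' shares were thus close to or under those of all genes.

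One fit leaves a residual: limma with additive terms for oxygen and genotype over the 4 arrays, two-sided, with Benjamini-Hochberg adjustment over the 9834 genes. Its residual is the difference of the 2 responses and its variance is borrowed mostly from other genes of like intensity, so its p-values do not measure the spread between cultures. In the labelled hypoxia term 2 of 39 members rose, CCNE1 and CCNE2, and 0 fell, while 4.72% of all genes rose and 4.17% fell. In the labelled genotype term 1 member rose, UHRF1, and 2 fell, MCM7 and PCNA, while 2.94% of all genes rose and 2.43% fell. At an unadjusted p under 0.05 the hypoxia term held 8 members (23.7% of all genes) and the genotype term 11 (22.3% of all genes). Without an intensity trend in the prior limma called 0 members in either term, beside 7 (hypoxia) and 0 (genotype) of all 9834 genes. Without the floor it again called 0 members in either term, beside 77 and 0 of 15115 genes. At an unadjusted p under 0.05 there were 6 members in each term without the trend (18.7% and 17.6% of all genes). Without the floor there were 7 and 11 (15.2% and 14.0% of all genes).

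The order of the arrays showed more than the sizes did. Both arrays labelled KD lay below both labelled WT for 17 of 39 members (43.6%), where 22.2% of all genes did so, and above them for 5 members (12.8%), where 19.0% of all genes did. Both arrays labelled hypoxia lay above both labelled normoxia for 9 members (23.1%), beside 22.8% of all genes, and below them for 4 (10.3%), beside 19.3%. Replication genes share regulators and are not independent of each other, so these shares are a description.

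All 8 licensing genes were lower in labelled KD hypoxia than in WT hypoxia, by -0.42 to -0.10 with a median of -0.23, where 52.1% of all genes were lower. In normoxia 5 of 8 (62.5%) were lower in KD cells, near the 51.6% of all genes, with a median of -0.19. In the oxygen comparisons the same genes had medians of -0.03 in KD and 0.08 in WT cells.

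MCM7, a subunit of the helicase ring, read 1428 and 1468 in labelled KD hypoxia and KD normoxia, against 1923 and 1836 in WT hypoxia and WT normoxia. The KD and WT arrays did not overlap. It was lower in KD by -0.42 in hypoxia and -0.32 in normoxia and fell in the limma genotype term by 0.37 (SE 0.08, adjusted p = 0.0286). A second, dim MCM7 probe set went the other way, with 56.0 and 61.9 in the KD arrays against 33.2 and 50.6 in the WT arrays, and was below the floor in WT hypoxia.

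MCM3, another ring subunit, read 776 and 844 in labelled KD hypoxia and KD normoxia, against 997 and 995 in WT hypoxia and WT normoxia. Its differences of -0.35 and -0.23 gave a limma adjusted p of 0.0909. The brightest MCM5 probe set read 2767 and 2800.3 in the same KD arrays against 3161 and 3182 in the WT arrays, again without overlap. Its limma genotype term was -0.19 (adjusted p = 0.127). The next brightest read 999.7 and 1028 in those KD arrays against 1015 and 1173, so KD normoxia lay above WT hypoxia. That probe set differed by -0.02 in hypoxia and -0.19 in normoxia, and the dimmest MCM5 probe set by -0.28 and 0.10. MCM4 was also lower in both KD arrays, with 2293 and 2159.8 against 2458 and 2628.

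MCM6, whose probe set was among the 2 brightest of the members, read 9354 in labelled KD hypoxia, 10197 in WT hypoxia, 9353 in KD normoxia and 9320.4 in WT normoxia. WT hypoxia was the highest, and the other arrays were nearly level. MCM2 read 279.6, 306, 329 and 287 in the same order. Its oxygen difference was -0.22 in KD cells and 0.09 in WT cells.

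CDC6, the ATPase that helps load the ring, read 1516 and 1524 in labelled KD hypoxia and KD normoxia, against 1907 and 1748 in WT hypoxia and WT normoxia. The brightest probe set thus put both KD arrays below both WT arrays, with a limma genotype term of -0.26 (adjusted p = 0.0881). The other CDC6 probe sets did not follow it. The brighter of these read 129 and 111 in the KD arrays against 65.2 and 68.5 in the WT arrays, so it was higher in KD by 0.84 and 0.59. The dimmer of them read 75.6 and 52.3 against 71.5 and 91.5 and had opposite signs.

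CDT1, the partner of CDC6 that is destroyed once S phase begins, read 571 in labelled KD hypoxia, 692 in WT hypoxia, 686 in KD normoxia and 618 in WT normoxia. It was lower in hypoxia by -0.26 in KD cells and higher by 0.16 in WT cells. A second CDT1 probe set gave -0.26 and 0.00.

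Genes of helicase assembly also tended to the lower side in KD. GINS1, GINS2, GINS3 and GINS4, the subunits of the GINS complex, had both KD arrays below both WT arrays on their brightest probe sets. Of all genes 22.2% did so. GINS3 read 99.8 in labelled KD hypoxia and 72.3 in KD normoxia, against 121 in WT hypoxia and 103 in WT normoxia. Its KD minus WT difference was -0.24 in hypoxia and -0.43 in normoxia (limma adjusted p = 0.225). The latter was the largest size among members in the normoxia pair. A second, dim GINS3 probe set gave 0.15 and 0.03, with 1 array above the floor. MCM10, which aids helicase activation, was higher in KD, with 907 and 766 in the KD arrays against 807 and 734 in the WT arrays.

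PCNA, the sliding clamp, was lower with the KD label on both of its probe sets. The brighter one read 2971 and 2784 in labelled KD hypoxia and KD normoxia, against 3614 and 3347 in WT hypoxia and WT normoxia. The arrays did not overlap, and PCNA fell by 0.27 in the limma genotype term (SE 0.06, adjusted p = 0.0421). The second PCNA probe set read 2333 and 2258 against 2763 and 2436, lower in KD by -0.24 and -0.11.

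No subunit of the clamp loader was called in the genotype term. On their brightest probe sets RFC1 to RFC5 had terms between -0.05 and 0.13, and limma adjusted p from 0.430 to 0.960. Other probe sets above the floor spread more widely. Of those of RFC1, 2 were lower in KD, at -0.26 and -0.30 and at -0.22 and -0.10 in hypoxia and normoxia, and 2 were at 0.17 and -0.02 and at 0.23 and 0.02. The others of RFC3 were at -0.09 and -0.33 and at -0.18 and -0.06, and whether loader and clamp differ was not tested. In the oxygen comparisons RFC3, a small loader subunit, read 1889 and 1932 in labelled KD hypoxia and WT hypoxia, against 1578 and 1644 in KD normoxia and WT normoxia. All 3 RFC3 probe sets were higher in hypoxia in both genotypes, by 0.12 to 0.42 in KD and 0.19 to 0.24 in WT cells, with a limma hypoxia term of 0.24 for the brightest (adjusted p = 0.0783). RFC5 was higher by 0.37 in WT cells and 0.11 in KD cells on its brightest probe set. Its second probe set above the floor gave 0.25 in WT cells and -0.26 in KD cells.

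**Figure D2:**
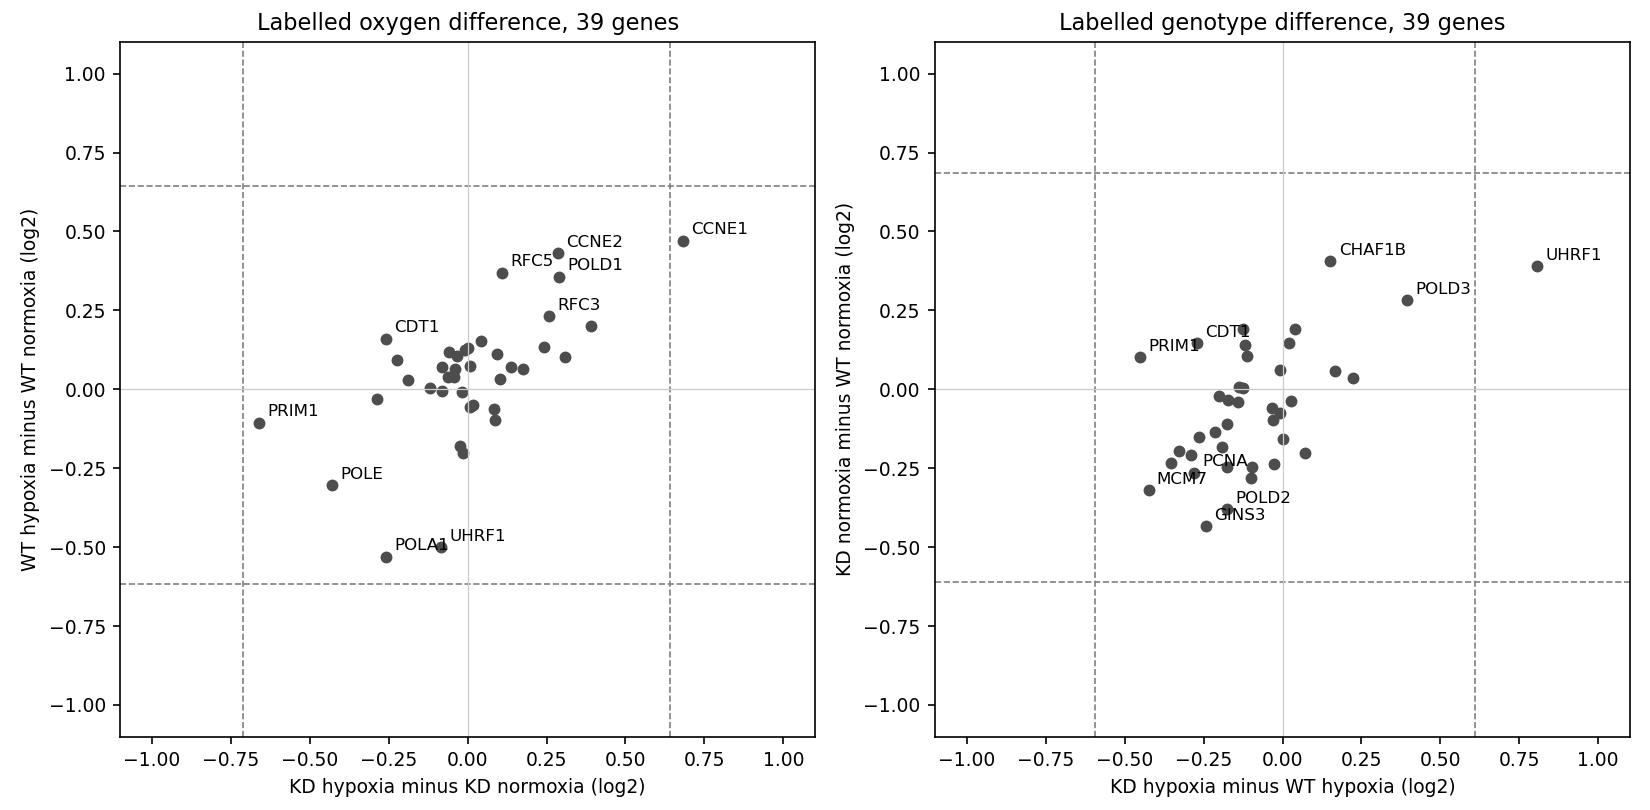
Log2 differences of the 39 members in the 2 pairs of arrays that share no array: labelled hypoxia minus normoxia in KD (horizontal) and WT cells (vertical) at left, labelled KD minus WT in hypoxia (horizontal) and normoxia (vertical) at right. Dashed lines bound the central 95% of all 9834 genes. CCNE1 at left and UHRF1 at right lie beyond a line, and most genotype points lie at lower left.

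The polymerase and primase genes went both ways. POLD1, the catalytic subunit of polymerase delta, read 288 and 328 in labelled KD hypoxia and WT hypoxia, against 233 and 252 in KD normoxia and WT normoxia. All 3 of its probe sets were higher in hypoxia in both genotypes, by 0.13 to 0.40 in KD and by 0.34 to 0.40 in WT cells, and its limma hypoxia term was 0.32 (adjusted p = 0.0990).

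POLE, the catalytic subunit of polymerase epsilon, read 118 and 116 in labelled KD hypoxia and WT hypoxia, against 164 and 146 in KD normoxia and WT normoxia. It was lower in hypoxia by -0.43 and -0.30. A second POLE probe set above the floor differed by 0.01 and -0.07, so the lower value rests on 1 probe set. POLA1, the catalytic subunit of polymerase alpha, had the largest WT oxygen difference of the members, -0.53, with 114 and 107 in the hypoxia arrays against 139 and 162 in the normoxia arrays. Its second probe set differed by 0.11 in WT cells.

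POLD2, an accessory subunit of polymerase delta, read 1198 and 964 in labelled KD hypoxia and KD normoxia, against 1354 and 1259 in WT hypoxia and WT normoxia. The KD normoxia array stood lowest, with a KD minus WT difference of -0.38 there and -0.17 in hypoxia. The other POLD2 probe sets above the floor were also on the lower side. They were at -0.13 and -0.28 in hypoxia and at -0.01 and -0.30 in normoxia. With oxygen in KD cells the brightest probe set was at 0.31, while these others were at -0.07 and -0.15. POLD3, another subunit of that polymerase, read 332 and 292 in the KD arrays against 249 and 237 in the WT arrays. It was higher in KD by 0.39 and 0.28 (limma adjusted p = 0.105), whereas its second probe set above the floor gave -0.11 and 0.08.

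PRIM1, the catalytic primase subunit, read 45.6 in labelled KD hypoxia, 68.2 in WT hypoxia, 81.3 in KD normoxia and 74.6 in WT normoxia. Only the KD hypoxia array was low, and its value lies just under the floor, so the size of the -0.66 difference between the KD arrays is not measured. POLA2, POLE2 and PRIM2 differed by -0.21 to 0.02 in the 4 comparisons on their brightest probe sets. A second PRIM2 probe set read 148 and 136 in labelled KD hypoxia and KD normoxia, against 199 and 208 in WT hypoxia and WT normoxia, lower in KD by -0.39 and -0.56. FEN1, which trims Okazaki fragment flaps, had differences of -0.08 and 0.07 with oxygen in KD and WT cells and of 0.04 and 0.19 with genotype in hypoxia and normoxia. Its second probe set above the floor gave -0.36 and -0.22 with genotype.

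The brightest probe sets of the nucleotide supply genes were nearly flat in the oxygen comparisons, between -0.06 and 0.15. RRM2, the S phase subunit of ribonucleotide reductase and the other of the 2 brightest probe sets, read 5917 and 5512 in labelled KD hypoxia and KD normoxia, against 6692 and 6536 in WT hypoxia and WT normoxia. Its limma genotype term was -0.21 (SE 0.05, adjusted p = 0.0523), just outside the threshold. The second RRM2 probe set read 2472 and 2231 against 3018 and 2922, lower by -0.29 and -0.39. RRM1, the larger subunit whose mRNA is less bound to S phase, had a genotype term of -0.01. TYMS and TK1, which make thymidine nucleotides, also had both KD arrays below both WT arrays, as did 22.2% of all genes. Their genotype terms were -0.09 and -0.21.

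Among genes that copy chromatin, UHRF1, which recruits the maintenance DNA methyltransferase to newly copied DNA, read 181 and 193 in labelled KD hypoxia and KD normoxia, against 96.6 and 143 in WT hypoxia and WT normoxia. It was higher in KD by 0.81 in hypoxia and 0.39 in normoxia and rose in the limma genotype term by 0.60 (SE 0.14, adjusted p = 0.0449). The call rests on 1 probe set. A second UHRF1 probe set read 40.7 and 50.6 in the KD arrays against 45.9 and 73.9 in the WT arrays, with 2 arrays below the floor, and the dimmest was below the floor throughout.

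CHAF1B, a subunit of the histone chaperone CAF-1, read 67.0 and 85.2 in labelled KD hypoxia and KD normoxia, against 58.7 and 60.3 in WT hypoxia and WT normoxia. It was higher in KD by 0.15 and 0.41 (limma adjusted p = 0.404). CHAF1A, its partner subunit, and SLBP, the binding protein of histone mRNA, had genotype terms of 0.00 and -0.11. The other SLBP probe sets were at -0.24 and 0.33 and at -0.05 and -0.17 with genotype in hypoxia and normoxia. With oxygen they were at -0.51 and 0.05 and at 0.23 and 0.10 in KD and WT cells.

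The 2 members called for oxygen are the E-type cyclins, which drive entry into S phase. CCNE1 read 1281 and 1306 in labelled KD hypoxia and WT hypoxia, against 793 and 938 in KD normoxia and WT normoxia, without overlap. It was higher in hypoxia by 0.68 in KD and 0.47 in WT cells and rose by 0.58 in limma's hypoxia term (SE 0.09, adjusted p = 0.00461). A second CCNE1 probe set, above the floor on all arrays, did not show this. It read 194 and 282 in the hypoxia arrays against 204 and 302 in the normoxia arrays, a difference of -0.07 in KD and -0.09 in WT cells. That second probe set followed the genotype label, with KD minus WT at -0.50 in hypoxia and -0.53 in normoxia, where the brighter one gave -0.03 and -0.24.

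CCNE2, its close relative, has 1 probe set here. It read 989.5 and 1089.8 in labelled KD hypoxia and WT hypoxia, against 809 and 804 in KD normoxia and WT normoxia. It was higher by 0.29 and 0.43 and rose by 0.36 in limma's hypoxia term (SE 0.09, adjusted p = 0.0394). E2F1, the activator factor upstream of many members, read 8.13, 26.1, 15.3 and 6.62 in labelled KD hypoxia, WT hypoxia, KD normoxia and WT normoxia. All lie below the floor, so no difference is given.

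**Figure D3:**
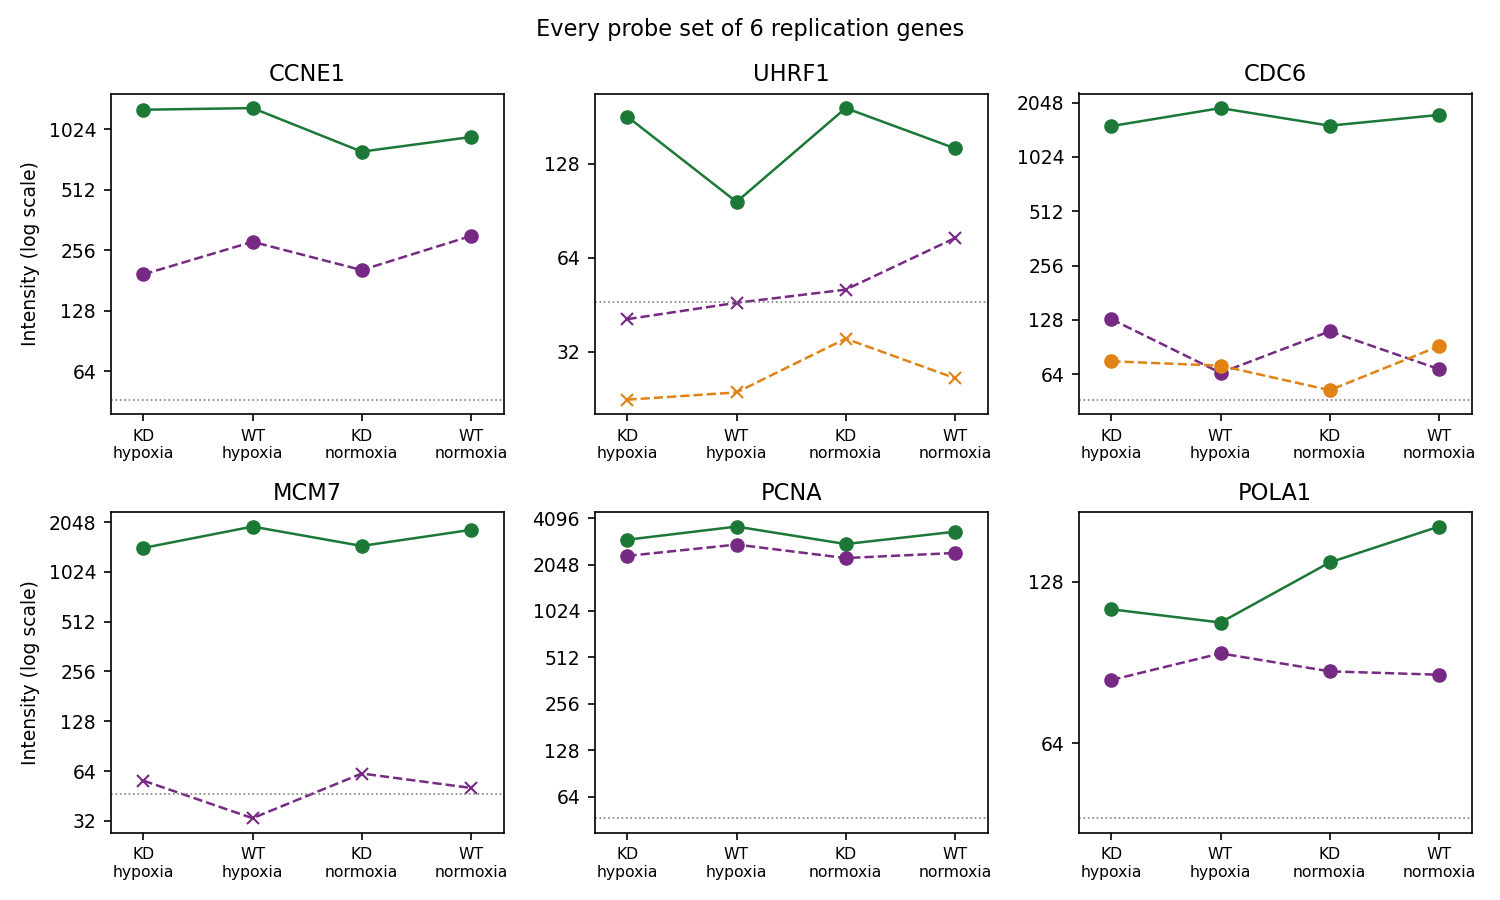
Intensity (log2-spaced axis) of every probe set of CCNE1, UHRF1, CDC6, MCM7, PCNA and POLA1 on the 4 arrays. The solid green line is the brightest probe set and dashed lines are others, crosses mark probe sets below the floor (dotted line) on at least 1 array. The 2 PCNA probe sets run in parallel, while those of CCNE1 and CDC6 do not.

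Disagreement between probe sets sets a scale for these differences. For the 25 members with at least 2 probe sets above the floor on all arrays, the highest and lowest probe set of a gene differed by a median of 0.14 and 0.12 in the KD and WT oxygen comparisons and by 0.15 and 0.27 in the hypoxia and normoxia genotype comparisons. Over all 3981 such genes the medians were 0.16 to 0.20. All probe sets of a gene had the same sign in 16 and 17 of the 25 members for oxygen (64% and 68%). For genotype they did so in 18 and 15 (72% and 60%). Over all 3981 such genes the shares were 62.3% and 61.8% for oxygen and 55.8% and 60.8% for genotype. The largest gaps were 0.75 for CCNE1 in the KD oxygen comparison and 1.24 for CDC6 in the normoxia genotype comparison.

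The 2 oxygen comparisons share no array, and neither do the 2 genotype comparisons. Across the 39 members the oxygen differences of KD and WT cells had r = 0.61 and rho = 0.56, beside r = 0.52 over all genes, and r = 0.50 without CCNE1 and CCNE2. The genotype differences in hypoxia and normoxia had r = 0.59 and rho = 0.49, beside r = 0.43 over all genes. In both genotype pairs 21 members (53.8%) were lower in KD and 7 (17.9%) higher, against 35.1% and 31.4% of all genes. These are correlations across genes of the same arrays and carry no test.

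The labelled oxygen response in KD minus that in WT cells had a median of -0.07 over members and 0.01 over all genes. No member reached 1.5-fold, where 3.44% of all genes did so upward and 4.11% downward. The largest sizes were CDT1 at -0.42, UHRF1 at 0.42, MCM2 at -0.31 and POLA1 at 0.27 among members above the floor on all arrays. These differences were not tested.

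Other genes of replication, in lists drawn up with earlier results of these arrays known, are set beside the members. Of 80 such genes 73 were measured and 68 reached the floor. Their median was 0.09 and 0.07 for labelled hypoxia minus normoxia in KD and WT cells and -0.09 for KD minus WT in both oxygen conditions. In the limma hypoxia term 5 of the 68 rose and 0 fell, beside 4.72% and 4.17% of all genes, and in the genotype term 2 rose and 6 fell, beside 2.94% and 2.43%. The difference from the members was not tested.

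Among fork proteins, POLE3, a histone-fold subunit of polymerase epsilon, read 196 and 148 in labelled KD hypoxia and WT hypoxia, against 102 and 83.9 in KD normoxia and WT normoxia. It rose in the limma hypoxia term by 0.78 (adjusted p = 0.0074), and DNA2, a nuclease of Okazaki fragment processing, rose by 0.66 (adjusted p = 0.0141). RECQL4, a helicase of replication start, was higher by 0.84 in WT cells and by 0.03 in KD cells. CHTF18, of an alternative clamp loader, fell in the genotype term by 0.54 (adjusted p = 0.0236), and CDC7, the kinase that fires origins, was at -0.40 in normoxia.

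Of 19 other G1/S control genes, E2F5 and CDK6 rose in the limma hypoxia term, by 0.64 (adjusted p = 0.0141) and 0.47 (adjusted p = 0.0314). CDK6, a kinase that works with D cyclins, fell in the genotype term by 0.61 (adjusted p = 0.0178). Cyclin D1, encoded by CCND1, read 1942 and 2089 in labelled KD hypoxia and KD normoxia, against 1523 and 1296 in WT hypoxia and WT normoxia, and rose in that term by 0.52 (adjusted p = 0.0177). CDKN1A, encoding the inhibitor p21, rose by 0.28 (adjusted p = 0.044).

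Of 18 other chromatin and repair genes 0 rose and 4 fell in the limma genotype term, beside 2.94% and 2.43% of all genes. UNG, which removes uracil from DNA, fell by 0.56 (adjusted p = 0.0344), USP1, which deubiquitinates PCNA, by 0.44 (adjusted p = 0.0277), BRCA2 by 0.40 (adjusted p = 0.0403) and ATAD2 by 0.39 (adjusted p = 0.0449). In the oxygen comparisons BRCA2 was at 0.35 and BRCA1 at 0.32 in KD cells, and BRIP1 at 0.50 and ASF1A at 0.31 in WT cells. None of the 4 passed the hypoxia term.

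The 7 genes encoding origin recognition subunits and geminin were all lower in labelled KD normoxia than in WT normoxia (ORC6 at -0.32, ORC2 at -0.21). In hypoxia 6 of 7 were lower in KD (ORC3 at -0.19, GMNN at -0.15). Of all genes 51.6% and 52.1% were lower in normoxia and hypoxia. In the genotype term 0 of the 7 were called by limma, beside 2.94% of all genes higher and 2.43% lower. At an unadjusted p under 0.05 there were 2 of the 7, beside 22.3% of all genes. ORC6 was at 0.37 and ORC2 at 0.30 with oxygen in KD cells, and ORC5 at -0.31 and ORC1 at 0.25 in WT cells. Among 5 other nucleotide supply genes NME1 rose in the hypoxia term by 0.27 (limma adjusted p = 0.0379), and RRM2B, the p53-inducible reductase subunit, was lower in KD by -0.29 and -0.44.

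**Figure D4:**
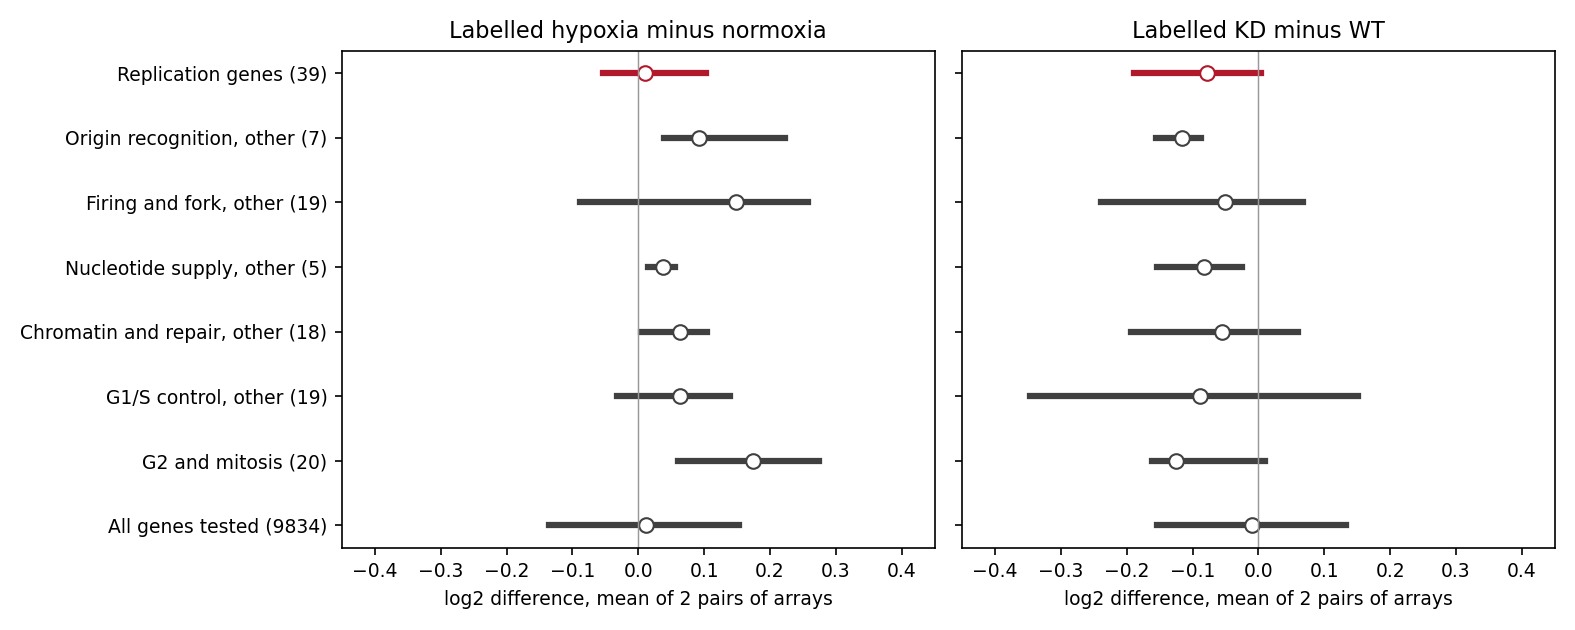
Median (circle) and middle 50% (bar) of the log2 difference, averaged over the 2 pairs of arrays, for the replication genes, other gene lists and all genes tested, with the number of genes in brackets. For labelled hypoxia minus normoxia the replication genes have a median of 0.01 and the G2 and mitosis genes of 0.17. For labelled KD minus WT the medians are -0.08 and -0.12.

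Genes of G2 and mitosis, the next phase of the cycle, are set beside the replication genes here. Averaged over both genotypes, their median for labelled hypoxia minus normoxia was 0.17 over 20 genes, with 19 higher and 1 lower, while the replication genes had a median of 0.01 with 20 higher and 19 lower (48.7%), and 47.6% of all genes were lower. In the limma hypoxia term 4 of the 20 rose and 1 fell, beside 4.72% and 4.17% of all genes. CDC25C, a phosphatase that activates CDK1, rose by 0.92 (adjusted p = 0.00126), AURKB by 0.41 (adjusted p = 0.01), CDK1 by 0.33 (adjusted p = 0.00862) and CCNB2 by 0.30 (adjusted p = 0.0275). NUF2, a kinetochore protein, fell by 0.68 (adjusted p = 0.00363). For labelled KD minus WT the medians were -0.12 and -0.08. Limma called 0 of the 20 mitosis genes in the genotype term, beside 2.94% of all genes higher and 2.43% lower. At an unadjusted p under 0.05 there were 5 of the 20, beside 22.3% of all genes. The difference between the lists was not tested.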

How the data were processed

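Probe set values are the intensity the authors deposited, on a linear scale, with software and scaling not given in the sources used here. Per the labels' protocols, biotinylated cRNA was prepared from 100 ng of total RNA with an Affymetrix 3' kit. Values were turned to log2(intensity + 16). Of 42924 probe sets 29254 had 1 gene symbol, 439 several and 13231 none. A gene was represented by the probe set with the highest mean (15115 genes) and kept if any array reached the median of all log2 values, 5.96 (9834 genes). Of the 40 measured members 37 were found by gene ID in a RefSeq table of the UU_Cfam_GSD_1.0 assembly, used for names alone. limma 3.58.1 in R 4.3.3 fitted oxygen and genotype as additive terms (lmFit, eBayes with trend), with 1 residual degree of freedom and a prior of 8.10. The fit was run on simulated data with planted differences and independent noise, whose size was taken from these arrays. The simulation held no variation between cultures or whole arrays, so it cannot test the calls given here. Named members were the 4 largest differences per comparison above the floor, all called or at least 2-fold different, and the 2 brightest. Other lists gave 2 genes per comparison. HIF1A, members past 1.5-fold and other called genes were added after their values were seen, as were members showing where probe sets differ. The members and lists were chosen with earlier results of these data known. Alternatives covered scaling, pseudocount, floor, probe set choice, fold and the limma prior. The number of arrays limits the precision.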

Additional observations from a re-analysis of the deposited data

Results flagged for a closer look

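Of the 38 members above the floor on all arrays, 21 changed sign between pairs: 15 had oxygen differences of unlike sign in KD and WT cells, and 10 had genotype differences of unlike sign in hypoxia and normoxia. Over all 39 members 38.5% and 28.2% had unlike signs for oxygen and genotype, near the 33.7% and 33.4% of all 9834 genes. The differences were not tested, and values near 0 take opposite signs readily. None of the 21 reached 1.5-fold in the difference of the responses. The values that follow are the log2 oxygen response in KD minus that in WT cells. Of opposite sign in both were CDT1 (-0.42), MCM2 (-0.31), CHAF1A (-0.22) and RRM1 (0.063).

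With oxygen alone these were SLBP (-0.18), FEN1 (-0.15), GINS1 (-0.14), CDC6 (-0.13), MCM3 (-0.12), MCM7 (-0.11), TYMS (-0.10) and GINS2 (-0.082) on the negative side. GINS4 (0.15), MCM4 (0.18) and POLA2 (0.068) were on the positive side. With genotype alone they were RFC5 (-0.26), CCNE2 (-0.14), MCM6 (-0.13), RFC2 (-0.067), POLE2 (0.16) and POLA1 (0.27).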

How the results depend on the processing

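With 3 other scalings, pseudocounts of 1 and 64, 2 other floors and the median over probe sets, member medians moved by less than 0.1. They ran from -0.03 to 0.01 (oxygen, KD), 0.03 to 0.07 (oxygen, WT), -0.13 to -0.09 (genotype, hypoxia), -0.13 to -0.03 (genotype, normoxia) and -0.07 to 0.00 (difference of the responses). The genotype medians kept their sign, and those of oxygen in KD and of the responses did not.

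Counts of members past the fold changed as follows. At 2-fold the KD oxygen count was 0 and not 2, and the hypoxia genotype count 0 and not 1. The KD oxygen count was 1 with the median over probe sets and 1 with a pseudocount of 64. With a pseudocount of 1 the WT oxygen count and that of the responses were 1 and not 0. Limma called 0 members in the hypoxia term and 0 in the genotype term without the floor, beside 77 and 0 of 15115 genes. Without the prior's trend it called 0 and 0 members, beside 7 and 0 of 9834 genes. With quantile scaling it called 8 for genotype, adding CDC6, MCM3, POLD2, POLD3 and RRM2 to the 3. Over all 9834 genes the genotype calls went from 528 to 1312 under that scaling. For hypoxia it also called POLA1 as lower, while the calls over all genes went from 874 to 1517. With the median over probe sets the hypoxia calls were CCNE2 and RFC3 and not CCNE1, beside 883 of 8452 genes. The genotype calls were then PCNA and RRM2, beside 693 of 8452 genes. RRM2 was called in 6 of its 9 alternatives. The cause of these changes was not tested.

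With the median over probe sets the genotype term turned to 0.0074 for MCM7 and to -0.28 for UHRF1, and UHRF1 in hypoxia to -0.13. The dim MCM7 probe set ran the other way. So did the second UHRF1 probe set, at -0.13 in hypoxia and -0.43 in normoxia, while the dimmest was at -0.05 and 0.28. CCNE1 then had a hypoxia term of 0.25 (adjusted p = 0.133). Over its alternatives the limma adjusted p lay between 2.71e-07 and 0.163 for CCNE1, 0.00499 and 0.216 for CCNE2, 0.00409 and 0.268 for PCNA, and 0.00623 and 0.337 for RRM2. Beside the UHRF1 difference in hypoxia that went to -0.13, 91 of 1515 member differences under these settings moved by 0.1 or more. Of these 77 did so with the median over probe sets, and some changed sign. With that median MCM7 in KD minus WT hypoxia went from -0.42 to 0.06. POLD2 in the KD oxygen comparison went from 0.31 to -0.11. In alternatives chosen after seeing the data, both KD arrays lay below both WT arrays for 15 to 18 of 39 members under the 3 other scalings (18.3% to 20.8% of all genes) and for 16 of 38 with the median over probe sets (23.6% of all genes). The licensing genes lower in KD hypoxia stayed at 8 under those scalings and were 6 with that median. No paired analysis was possible because each group has 1 array, beyond the additive limma fit, which already averages the oxygen difference within each genotype. No replicate could be left out.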
